A study of Homo sapiens with 12 samples.

Results

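In BJ cells, a line of normal human foreskin fibroblasts, a small set of genes was picked out by limits on their values. These genes differed from the control when EZH2 was put back after knockdown, although the knockdown itself had left them close to the control. The set holds 101 array probes of 98 genes, out of 47231 probes and 20046 gene symbols on the array. Of these, 58 probes of 57 genes lay higher with re-expressed EZH2 than in the control and are called raised genes below, and 43 probes of 41 genes lay lower and are called lowered genes. Among the lowered genes were collagen VI chains (COL6A2, COL6A3), small matrix proteoglycans (FMOD, PRELP), the extracellular antioxidant enzyme SOD3, the adhesion receptors ITGAV and FAT1, and lysosomal proteases. Among the raised genes were the mitotic regulators CDC20 and PTTG1, the nucleotide enzyme TK1, tubulins, Mediator subunits, and PSPH, an enzyme of serine synthesis.

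The genes were chosen from the values, on the authors' own normalized scale. A probe entered if it had 1 gene symbol, if its detection p-value was under 0.01 on all 12 arrays, if its mean log2 value with si-EZH2 lay within 0.2 of si-Control, and if its mean with re-expressed EZH2 differed from si-Control by 0.5 or more. Of 12861 detected probes with 1 symbol, 10185 met the knockdown limit, and 101 of those met the EZH2 limit as well. Without the knockdown limit, 336 probes met the EZH2 limit, 187 of them higher and 149 lower. The differences of EZH2 re-expression from si-Control, and the closeness of si-EZH2 to si-Control, are therefore given as descriptions, with no test.

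The study had 4 groups of 3 arrays. All cells received a lentivirus for 72 h and then siRNA for 60 h. The si-Control group received the virus labelled LV-C and si-Control, and the si-EZH2 group received LV-C and si-EZH2. The EZH2 re-expression group received an siRNA-resistant EZH2 virus and si-EZH2, and the T350A re-expression group received an siRNA-resistant virus for the T350A mutant and si-EZH2. In T350A the threonine at that position is replaced by alanine. Both re-expression groups thus also carry the knockdown of the cells' own EZH2. Nothing in the labels says whether replicates were separate cultures, so the p-values measure the spread between these samples, which may be technical. Whether transduced cells were selected is not given in the sources used here.

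EZH2 is the enzyme of Polycomb repressive complex 2, PRC2, which places methyl groups on lysine 27 of histone H3 and is best known for holding developmental and cell-cycle inhibitor genes silent. Cyclin-dependent kinases can phosphorylate EZH2 at the threonine changed here, and the study's title names the effect of that phosphorylation on repression as its question. In fibroblasts EZH2 is typically abundant in dividing cells and scarce in senescent ones. Because the arrays measure bulk RNA, fewer cells of a kind and less RNA per cell cannot be told apart.

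On 2 of its 3 probes, EZH2 went the way of the labels in every group. On probe ILMN_1652913 the log2 intensities were 6.43, 6.13 and 6.41 under si-Control, 5.46, 5.59 and 5.12 under si-EZH2, 8.46, 8.62 and 8.57 with re-expressed EZH2, and 7.98, 8.06 and 7.93 after T350A. On ILMN_2364529 they were 5.86, 5.42 and 5.62 under si-Control, 8.5, 8.46 and 8.47 after EZH2, and 7.2, 7.04 and 7.32 after T350A, while 0 of 3 si-EZH2 arrays detected it. The re-expressed RNA therefore lay above the si-Control level on these probes in each group, and T350A lay below EZH2. That last difference was -1.29 on ILMN_2364529 (limma adjusted p = 0.000254) and -0.56 on ILMN_1652913 (limma adjusted p = 0.211). The third probe, ILMN_1708105, stayed below si-Control in both re-expression groups, at 5.68 to 5.99 with EZH2 and 5.7 to 6.14 with T350A against 6.68 to 6.96. The part that this difference in re-expressed RNA plays in the values below was not tested.

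The arrays were alike in the number of probes detected, at 20658 to 21910 per array. Before normalization the median signal was 64.3 to 73.8 under si-Control and 60.4 to 64.7 under si-EZH2. It was 59.9 to 62.3 with re-expressed EZH2 and 60.8 to 68.9 with T350A, so the EZH2 arrays lay below every si-Control array. All 10 fibroblast markers were detected on all 12 arrays, while CDH1, KRT5, VWF, CDH5, KDR, PTPRC, CD3E and LYZ were detected on none. The summed linear intensity of the 10 fibroblast markers was 212000 to 217000 under si-Control, 222000 to 223000 under si-EZH2, 204000 to 205000 with re-expressed EZH2 and 200000 to 214000 with the mutant. That of the 6 epithelial markers, of which 4 were detected, was 4560 to 5040 under si-Control, 4040 to 4330 under si-EZH2, 5550 to 5980 after EZH2 and 4770 to 4900 after T350A. The part of these shifts in the results was not tested.

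All 12 arrays lay on 1 chip, in lettered sections. The EZH2 re-expression arrays occupied the adjacent sections I to K, so section and group cannot be told apart there. The T350A arrays lay in B, D and L, and the first 2 of these stood among the si-Control arrays in A, C and F.

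**Figure D1:**
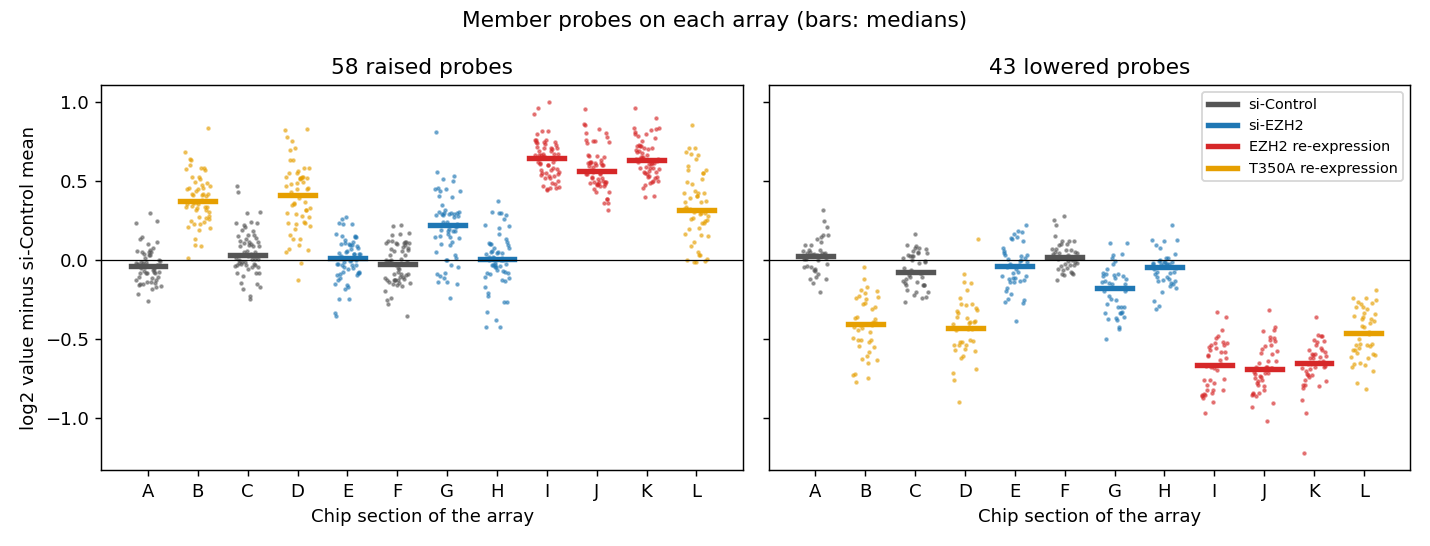
Each point is 1 probe on 1 array, as its log2 value minus the si-Control mean of that probe, with arrays in the order of their chip sections (A to L) and bars at the medians. The T350A arrays in sections B, D and L sit between the si-Control arrays and the EZH2 arrays, and si-EZH2 replicate 2 in section G leans the same way, at a median of 0.222 for raised probes.

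Relative to the si-Control mean, the raised probes had medians of 0.646, 0.636 and 0.565 on the 3 EZH2 arrays. On the 3 T350A arrays their medians were 0.375, 0.411 and 0.319. The lowered probes had medians of -0.661, -0.65 and -0.687 with EZH2 and -0.402, -0.428 and -0.463 with T350A. The T350A arrays thus stood between si-Control and EZH2 in both directions, and of the T350A arrays the one in section L, next to the EZH2 arrays, was farthest from them for raised probes and nearest for lowered probes. On the si-EZH2 arrays the raised probes had medians of 0.013, 0.222 and 0.005, and the lowered probes -0.035, -0.176 and -0.041. Replicate 2 of si-EZH2 leaned toward the EZH2 arrays. Without that array the rule chose 71 raised and 55 lowered probes, and CDC20, HCFC1R1, RNA18SN5, TAOK1 and COL6A3 probe ILMN_1706643 no longer met the knockdown limit.

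Since the rule chose probes by their EZH2 values, the choice was repeated without replicate 1, 2 or 3 of each group of the rule and read on the arrays left out. On the authors' scale, the medians of the probes chosen as raised went from 0.57, 0.56 and 0.56 in the choosing arrays to 0.5, 0.41 and 0.44 in the left-out EZH2 array against the left-out si-Control array. For probes chosen as lowered they went from -0.59, -0.56 and -0.56 to -0.54, -0.43 and -0.42. The left-out arrays thus gave smaller differences of the same sign. The left-out T350A arrays gave 0.41, 0.27 and 0.3 for raised and -0.31, -0.27 and -0.33 for lowered probes, against 0.07, 0.12 and 0.03 and -0.11, -0.07 and -0.05 for the left-out si-EZH2 arrays. The EZH2, T350A and si-EZH2 values here share the left-out si-Control array. Membership itself was less stable, since 27 to 39 of the 48 to 78 probes chosen as raised, and 30 to 35 of the 52 to 67 chosen as lowered, belonged to the full set.

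**Figure D2:**
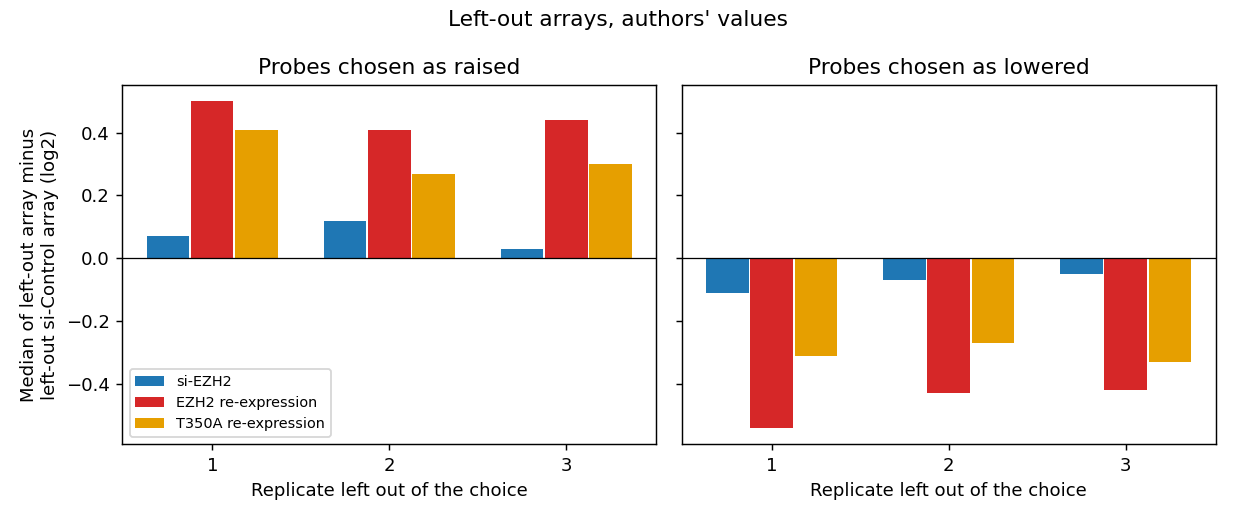
Bars are medians, on the authors' log2 scale, of a left-out array minus the left-out si-Control array, over probes chosen without that replicate number. For raised probes the EZH2 bars stand at 0.5, 0.41 and 0.44 and the T350A bars at 0.41, 0.27 and 0.3.

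T350A arrays had no part in the choice beyond the detection limit, although the si-Control arrays did. Compared with si-Control in the fit over 23313 probes, 24 of 43 lowered probes fell and 16 of 58 raised probes rose with T350A (limma, adjusted p under 0.05). Among all tested probes 1.81% fell and 1.75% rose, and among the 10185 probes past every other criterion 1.1% fell and 0.648% rose. The median difference was -0.434 (range -0.65 to -0.11) over the lowered and 0.364 (range 0.04 to 0.75) over the raised probes, against 0 over all tested probes. The 3 T350A arrays lay entirely below the 3 si-Control arrays for 39 of 43 lowered probes (11.3% of all tested probes) and entirely above them for 38 of 58 raised probes (11.5%). Since the same si-Control arrays served the rule, part of these differences is shared with the choice. Leaving out 1 array gave 5 to 20 raised and 7 to 21 lowered calls, with the fewest raised calls without T350A replicate 2 and the fewest lowered calls without si-Control replicate 3. With chip section as a linear covariate 15 of the 43 lowered probes were called.

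Set directly against EZH2, 0 of 43 lowered and 0 of 58 raised probes were called with T350A (limma, adjusted p under 0.05). Of all tested probes 0% were called higher and 0.00858% lower in this comparison. The median difference of T350A from EZH2 was 0.233 over the lowered probes (range -0.02 to 0.54) and -0.249 over the raised probes (range -0.68 to 0.01). The rule chose the probes for extreme values on the EZH2 arrays, so a T350A value on the si-Control side of EZH2 is favoured by the choice, here and for the single genes below. This holds too for the 19 lowered and 26 raised probes with an unadjusted p under 0.05, where 8.79% of all tested probes had one, and nothing is read from these counts. The smallest limma adjusted p was 0.0637, for RAB27B. Without background correction 6 raised and 3 lowered probes were called in this comparison.

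Against si-EZH2, T350A called 1 raised probe, PSPH, and 1 lowered probe, SOD3 (limma adjusted p = 0.0483 for each), where 0.0472% of all tested probes were higher and 0.0558% lower. These calls were not stable: both sets had 0 calls with only the groups compared, with the replicate block and with chip section, and up to 14 raised and 15 lowered without background correction. Leaving out 1 array gave 0 to 2 raised and 0 to 1 lowered calls, and both sets had 1 call in only 1 of these 12 fits, that without si-Control replicate 2. The median differences were 0.3 over the raised and -0.342 over the lowered probes, against 0.001 over all tested probes. The rule kept only probes whose si-EZH2 mean lay close to si-Control. The comparison of T350A with si-EZH2 therefore partly repeats that of T350A with si-Control. Re-expressed EZH2 against si-EZH2 shares both groups with the rule, which fixes that difference, so no count is given for it.

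**Figure D3:**
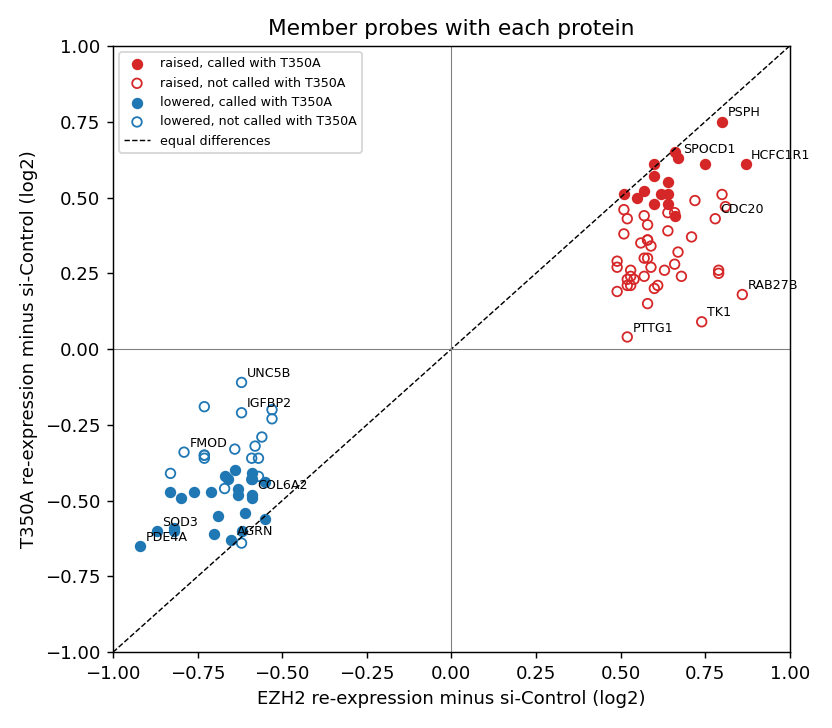
Each point is 1 probe, with its limma log2 difference of EZH2 re-expression from si-Control on the horizontal axis and of T350A re-expression from si-Control on the vertical axis. The dashed line marks equal differences, filled points passed limma's test with T350A (16 raised, 24 lowered), and the axes share the si-Control arrays, so a common slope is partly built in. TK1, PTTG1 and RAB27B lie near 0 with T350A and PSPH, SPOCD1 and AGRN near the line.

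The genes were sorted by role after their values had been seen, to order the account. Counts of calls within a role are descriptions, to be set beside 24 of 43 (55.8%) for the lowered set, 16 of 58 (27.6%) for the raised set, and 1.81% lower and 1.75% higher over all tested probes, and no role is shown to differ from its set. The lowered genes of matrix and secreted proteins were COL6A2, COL6A3, FMOD, PRELP, SOD3, AEBP1, AGRN, IGFBP2 and APOD, on 11 probes. With T350A, 3 of the 11 fell (55.8% of the lowered set, 1.81% of all probes), and their median difference from si-Control was -0.34. Collagen VI forms beaded filaments around cells from 3 chains that assemble together. FMOD and PRELP are small leucine-rich proteins that bind collagen, and SOD3 removes superoxide outside the cell.

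SOD3 had log2 intensities of 8.72, 8.78 and 8.79 under si-Control, 8.84, 8.68 and 8.74 under si-EZH2, 7.91, 7.88 and 7.91 after EZH2, and 8.04, 8.36 and 8.09 after T350A. The T350A arrays lay below every si-Control and si-EZH2 array and above every EZH2 array. SOD3 fell with T350A by 0.60 (SE 0.1, limma adjusted p = 0.00566) relative to si-Control, a 1.52-fold lower intensity. AGRN, the basement membrane proteoglycan agrin, read 10.32, 10.29 and 10.25 under si-Control, 9.75, 9.6 and 9.55 after EZH2, and 9.66, 9.67 and 9.64 after T350A. For AGRN the EZH2 and T350A arrays overlapped, and both groups lay below si-Control. AGRN fell with T350A by 0.63 (SE 0.098, limma adjusted p = 0.00321).

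COL6A2 probe ILMN_1809928 read 11.16, 11.12 and 11.13 under si-Control, 11.32, 11.05 and 11.15 under si-EZH2, 10.66, 10.49 and 10.5 after EZH2, and 10.62, 10.74 and 10.6 after T350A. Both re-expression groups lay below every other array and overlapped each other, and COL6A2 fell with T350A by 0.48 (limma adjusted p = 0.0171). A brighter COL6A2 probe, ILMN_1783909, was not a member and had means of 12.57 under si-Control, 12.55 under si-EZH2, 12.05 after EZH2 and 12.19 after T350A. The COL6A3 probe ILMN_1706643 read 14.67, 14.86 and 14.79 under si-Control, 14.25, 14.18 and 14.23 after EZH2 and 14.53, 14.49 and 14.44 after T350A. Under si-EZH2 it read 14.39, 14.77 and 14.76. Its T350A arrays lay between those of si-Control and EZH2 without overlap, while they overlapped si-EZH2, and the difference from si-Control, -0.29, was not called (limma adjusted p = 0.174). The second COL6A3 probe, ILMN_2307861, stood likewise at -0.2 (limma adjusted p = 0.41).

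FMOD read 9.2, 9.03 and 9.34 under si-Control, 9.22, 9.06 and 9.1 under si-EZH2, 8.34, 8.4 and 8.47 after EZH2, and 8.95, 8.75 and 8.84 after T350A. Its T350A arrays lay below every si-Control array and above every EZH2 array. Neither difference was called, at -0.34 from si-Control (limma adjusted p = 0.0878) and 0.45 from EZH2 (limma adjusted p = 0.22). The PRELP probes gave -0.36 and -0.19 from si-Control, and 0.37 and 0.54 from EZH2, and the T350A arrays lay above the EZH2 arrays on each probe. APOD, a lipid-carrying secreted protein, read 11.36, 11.43 and 11.21 under si-Control, 10.51, 10.63 and 10.66 after EZH2 and 10.89, 11.01 and 11.04 after T350A. The 3 APOD groups did not overlap. IGFBP2, which binds insulin-like growth factors, lay at -0.21 with T350A, where its arrays overlapped si-Control.

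The lowered cell surface genes were FAT1, ITGAV, PTGFRN, NECTIN3, SEMA5A, UNC5B, TTYH3, GLRB and KCNS3. With T350A 4 of these 9 probes fell (55.8% of the lowered set, 1.81% of all probes), at a median of -0.44. ITGAV, the alpha V integrin chain, read 11.36, 11.34 and 11.33 under si-Control, 10.81, 10.67 and 10.9 after EZH2 and 10.97, 10.77 and 10.96 after T350A. Both re-expression groups lay below every si-Control array. PTGFRN, a partner of tetraspanins, read 9.08, 9.02 and 9.11 under si-Control, 8.2, 8.28 and 8.23 after EZH2, and 8.65, 8.31 and 8.83 after T350A, which lay between them. FAT1, an atypical cadherin, was uneven after T350A, at 11.97, 11.3 and 11.93 against 12.25, 12.1 and 12.24 under si-Control, and was not called (limma adjusted p = 0.0988). UNC5B, a netrin receptor, had the smallest T350A difference of the lowered genes, -0.11, and lay 0.51 above EZH2 (limma adjusted p = 0.254).

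The lowered lysosomal and endosomal genes were CTSD, CTSC, PLBD2, SLC46A3, SBF2, RAB38, RAB11FIP2 and AP5S1, and 5 of their 8 probes fell with T350A (55.8% of the lowered set, 1.81% of all probes). RAB38, a small GTPase of lysosome-related organelles, read 9.78, 9.97 and 9.95 under si-Control, 9.32, 9.32 and 9.39 after EZH2 and 9.5, 9.21 and 9.3 after T350A. The re-expression groups overlapped each other and lay below si-Control (T350A difference -0.56, limma adjusted p = 0.00805). SBF2, a regulator of endosomal traffic, read 8.61, 8.62 and 8.53 under si-Control, 7.8, 7.87 and 7.81 after EZH2 and 8.08, 8.25 and 8 after T350A, with no overlap among these groups. The protease genes CTSD and CTSC stood at -0.43 and -0.23 with T350A, neither called.

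The lowered genes of the nucleus and of signalling were EP300, TAOK1, PDE4A, SAP30L, SFSWAP, RNF19B, YWHAE, PID1, DLGAP4, ZNF579 and TOR1AIP1. Of these 11 probes 9 fell with T350A (55.8% of the lowered set, 1.81% of all probes). EP300, a histone acetyltransferase, read 8.75, 8.47 and 8.99 under si-Control, 7.98, 7.93 and 7.89 after EZH2 and 8.37, 8.2 and 8.17 after T350A. The T350A arrays lay between these groups (difference from si-Control -0.49, limma adjusted p = 0.0459). The EP300 call held in 2 of 12 fits without 1 array and in 8 of 11 other settings, with adjusted p-values up to 0.166. PDE4A, which breaks down cyclic AMP, read 7.61, 7.37 and 7.57 under si-Control, 6.67, 6.3 and 6.81 after EZH2 and 6.8, 6.95 and 6.86 after T350A, and the re-expression groups overlapped. DLGAP4, a scaffold protein, fell by 0.60 with T350A (limma adjusted p = 0.0103).

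The remaining lowered genes were FAM210B, CERCAM, GRINA and the pseudogene SLC6A10P. FAM210B, a mitochondrial membrane protein, read 10.82, 10.63 and 10.83 under si-Control, 10.66, 10.62 and 10.89 under si-EZH2, 9.9, 10.08 and 9.83 after EZH2 and 10.27, 10.05 and 10.15 after T350A. It lay lower in both re-expression groups than in every other array, and fell with T350A by 0.60 (limma adjusted p = 0.00957). The SLC6A10P probe may also bind RNA of the transporter gene it was copied from, so its identity is uncertain.

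**Figure D4:**
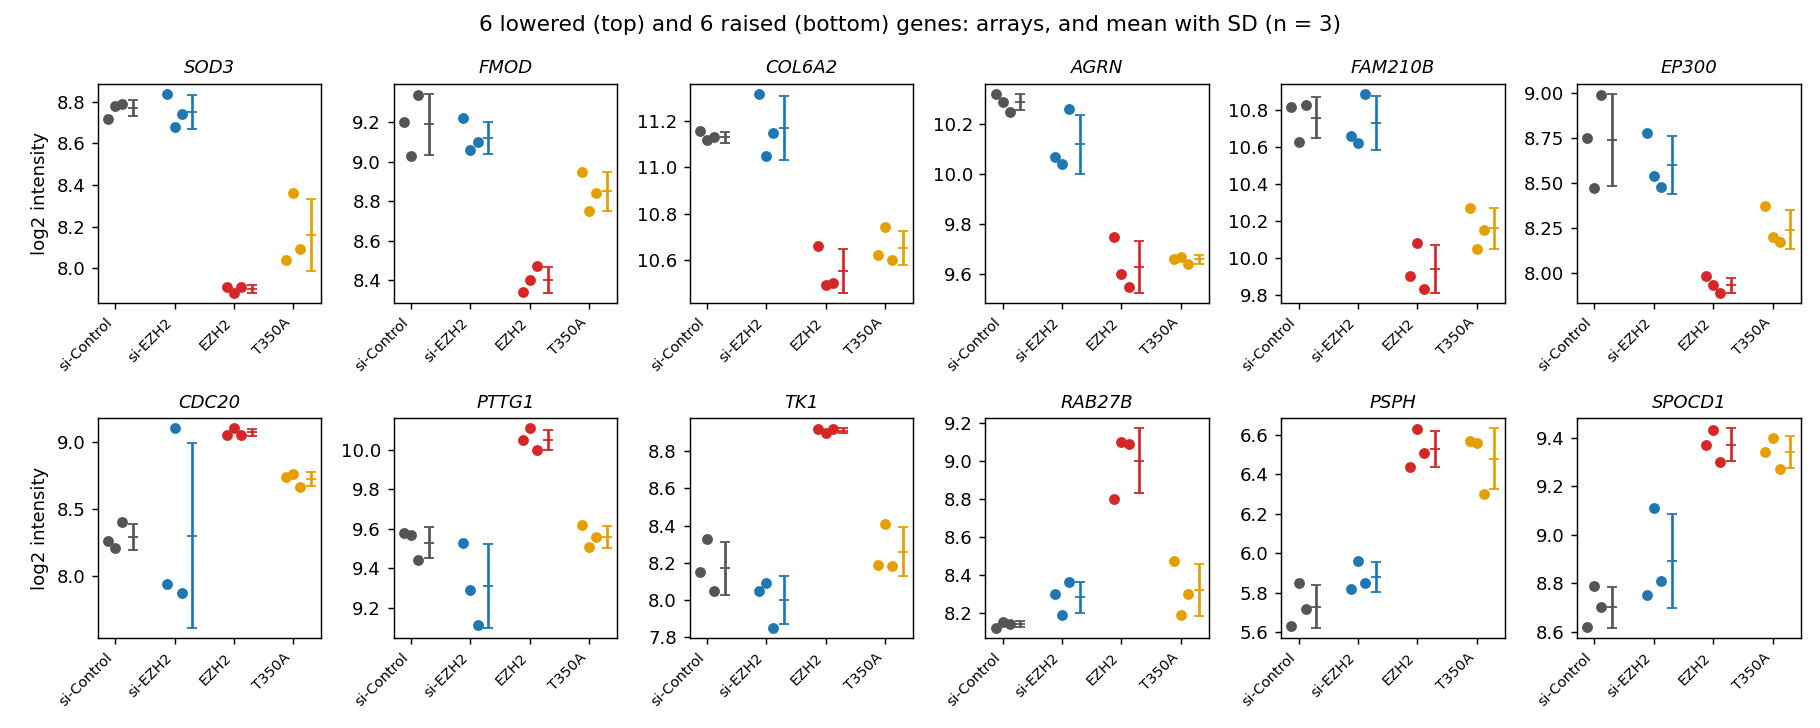
Points are single arrays and bars the mean with SD (n = 3) of log2 intensity in each group, for 6 lowered genes in the top row and 6 raised genes in the bottom row, each panel with its own axis. PTTG1, TK1 and RAB27B with T350A sit near si-Control, while AGRN, PSPH and SPOCD1 sit near EZH2, and the high si-EZH2 point of CDC20 is replicate 2, at 9.1.

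The raised genes of cell division and the cytoskeleton were CDC20, PTTG1, TK1, RANGAP1, H2BC5, TUBB3, TUBA1B, TMSB15A, MAP6 and CLIP3. With T350A 0 of these 10 probes rose (27.6% of the raised set, 1.75% of all probes), with a median difference of 0.26 from si-Control and -0.34 from EZH2. CDC20 activates the anaphase-promoting complex, PTTG1 is securin, which that complex destroys at anaphase, and TK1 makes thymidine phosphate for DNA synthesis. Their promoters are shown because cell-cycle genes often carry CCAAT boxes. The sequences are RefSeq's, on GRCh38.p14, from 250 bases before to 50 after the gene start, printed 5′ to 3′ on the gene's strand. Capitals mark CCAAT boxes (CCAAT or its complement ATTGG) and GC boxes (GGGCGG or its complement CCGCCC). CDC20 lies at chr1:43358731-43359030 on the + strand, PTTG1 at chr5:160421605-160421904 on the + strand and TK1 at chr17:78187155-78187454 on the - strand.
CDC20: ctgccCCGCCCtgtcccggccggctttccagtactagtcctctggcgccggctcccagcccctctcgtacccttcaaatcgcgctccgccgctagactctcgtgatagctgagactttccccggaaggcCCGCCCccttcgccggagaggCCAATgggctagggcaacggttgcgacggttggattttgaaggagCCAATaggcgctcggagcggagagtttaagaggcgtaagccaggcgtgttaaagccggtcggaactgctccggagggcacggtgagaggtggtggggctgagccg
PTTG1: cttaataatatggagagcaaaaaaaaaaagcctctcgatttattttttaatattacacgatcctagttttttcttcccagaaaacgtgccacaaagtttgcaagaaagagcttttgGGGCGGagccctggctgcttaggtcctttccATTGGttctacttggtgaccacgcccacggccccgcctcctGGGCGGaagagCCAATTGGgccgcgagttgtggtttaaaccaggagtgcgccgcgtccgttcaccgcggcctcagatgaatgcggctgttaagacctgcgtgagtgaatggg
TK1: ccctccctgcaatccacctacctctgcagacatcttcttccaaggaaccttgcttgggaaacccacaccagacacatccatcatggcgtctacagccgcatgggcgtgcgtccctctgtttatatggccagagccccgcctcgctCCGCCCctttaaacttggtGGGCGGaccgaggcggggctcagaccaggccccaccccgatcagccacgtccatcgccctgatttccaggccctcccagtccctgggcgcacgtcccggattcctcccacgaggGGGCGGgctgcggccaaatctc
CDC20 held 2 CCAAT boxes and 2 GC boxes, PTTG1 held 3 and 2 with its last 2 CCAAT boxes overlapping, and TK1 held 0 and 3. A match is a description of these letters only.

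TK1 read 8.15, 8.33 and 8.05 under si-Control, 8.05, 8.09 and 7.85 under si-EZH2, 8.92, 8.9 and 8.92 after EZH2, and 8.19, 8.41 and 8.18 after T350A. The EZH2 arrays stood above every other array, and T350A overlapped si-Control. The T350A difference from EZH2 was -0.65 (SE 0.11, limma adjusted p = 0.0815) and that from si-Control 0.09. PTTG1 read 9.58, 9.57 and 9.44 under si-Control, 10.05, 10.11 and 10 after EZH2, and 9.62, 9.51 and 9.56 after T350A. Again T350A overlapped si-Control and lay below every EZH2 array, by 0.49 on average (limma adjusted p = 0.218). Of 23 other settings, 5 for TK1 and 4 for PTTG1 took the difference from EZH2 past the threshold, with limma adjusted p-values from 0.000675 to 0.327 for TK1 and from 0.0132 to 0.412 for PTTG1. A second PTTG1 probe, ILMN_1753196, was no member and moved less with EZH2. Its means were 9 under si-Control, 8.74 under si-EZH2, 9.16 after EZH2 and 8.87 after T350A. On that probe T350A lay at -0.28 from EZH2 (limma adjusted p = 0.533).

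CDC20 read 8.26, 8.21 and 8.4 under si-Control, 7.94, 9.1 and 7.87 under si-EZH2, 9.05, 9.1 and 9.05 after EZH2 and 8.74, 8.76 and 8.66 after T350A. The T350A arrays lay between si-Control and EZH2, at 0.43 from si-Control (limma adjusted p = 0.312). On the authors' scale the si-EZH2 mean of CDC20 lay 0.03 above si-Control, but -0.33 from it without si-EZH2 replicate 2, so its place in the set rests on that array. TUBB3, a beta tubulin, read 9.49, 9.85 and 9.5 under si-Control, 10.37, 10.41 and 10.47 after EZH2 and 10.19, 10.14 and 10.04 after T350A, without overlap and not called (limma adjusted p = 0.0687). TMSB15A, an actin-binding thymosin, lay 0.53 below EZH2 with T350A and overlapped si-Control. Probes of the tubulins and of H2BC5 may also bind RNA of close family members, so these identities are uncertain.

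The raised genes of transcription and RNA were E4F1, SPOCD1, ID1, ID2, NFE2, MED16, MED20, HCFC1R1, ERCC2, LSM4, TARBP2, MEG3, RNA28SN5 and RNA18SN5. On their 15 probes, 5 rose with T350A (27.6% of the raised set, 1.75% of all probes), for E4F1, HCFC1R1, MEG3, SPOCD1 and TARBP2. SPOCD1, known in mice from piRNA-guided DNA methylation in the germ line, read 8.62, 8.79 and 8.7 under si-Control, 8.75, 9.11 and 8.81 under si-EZH2, 9.37, 9.43 and 9.3 after EZH2 and 9.34, 9.4 and 9.27 after T350A. The re-expression groups overlapped each other and lay above the other arrays (T350A difference 0.63, SE 0.11, limma adjusted p = 0.00577). E4F1, a zinc finger transcription factor, read 8.62, 8.89 and 8.8 under si-Control, 9.46, 9.41 and 9.43 after EZH2 and 9.37, 9.4 and 9.48 after T350A, which overlapped. MEG3, an imprinted long non-coding RNA, rose by 0.48 with T350A (limma adjusted p = 0.0169). A MEG3 probe that was no member, ILMN_1671149, stood at 0.1 from si-Control with T350A (limma adjusted p = 0.641). It stood at 0.19 with EZH2 and 0.21 with si-EZH2. MED16, a Mediator subunit with a pair of member probes, stood at 0.36 and 0.23 with T350A, neither called. Another MED16 probe, ILMN_1730307, was no member and lay on the other side of si-Control. Its means were 8.75 under si-Control, 8.64 under si-EZH2, 8.62 after EZH2 and 8.41 after T350A. The ribosomal RNA probes of RNA28SN5 and RNA18SN5 stood at 0.28 and 0.27 with T350A.

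The raised genes of metabolism and protein handling were PSPH, SLC25A22, BCKDHB, CDA, TPI1P2, PIGU, SIL1, VCP, RNF126, AQP11 and NPRL3, and 5 of these 11 probes rose with T350A (27.6% of the raised set, 1.75% of all probes), at a median of 0.49. PSPH, the last enzyme of serine synthesis, read 5.63, 5.85 and 5.72 under si-Control, 5.82, 5.96 and 5.85 under si-EZH2, 6.44, 6.63 and 6.51 after EZH2 and 6.57, 6.56 and 6.3 after T350A. Every re-expression array lay above every other array. PSPH had the largest T350A difference of the set, 0.75 (SE 0.11, limma adjusted p = 0.00186), a 1.68-fold higher intensity. A brighter PSPH probe that was no member, ILMN_1776105, had means of 8.62 under si-Control, 8.58 under si-EZH2, 8.86 after EZH2 and 8.76 after T350A, and its T350A difference of 0.15 was not called (limma adjusted p = 0.526). TPI1P2, a pseudogene of the glycolytic enzyme triosephosphate isomerase whose probe may also bind the parent RNA, rose by 0.61 (limma adjusted p = 0.0124). SIL1, which helps the chaperone BiP release its nucleotide, rose by 0.50 (limma adjusted p = 0.0132). BCKDHB, of branched-chain amino acid breakdown, lay 0.44 below EZH2 with T350A (limma adjusted p = 0.299) and overlapped si-Control. Its further probes, no members, went otherwise. Probe ILMN_1655433 stood at 0.28 from si-Control with EZH2 and 0.29 with T350A. On ILMN_1764166 these differences were -0.07 and -0.31, so the BCKDHB values hold for the member probe and not for the gene.

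The raised genes of membranes, traffic and signalling were RAB27B, SYT11, AP1B1, SH3GL1, TBC1D2, PTPRF, SCRIB, ITGA3, PHLDB1, ARAF, RTKN, DKK1, DLK2, FRMD8 and APH1B, and 5 of these 15 probes rose with T350A (27.6% of the raised set, 1.75% of all probes). RAB27B, a small GTPase of secretory vesicles, read 8.12, 8.15 and 8.14 under si-Control, 8.3, 8.19 and 8.36 under si-EZH2, 8.8, 9.1 and 9.09 after EZH2 and 8.47, 8.19 and 8.3 after T350A. The EZH2 arrays stood above every other array. T350A overlapped si-EZH2, and the arrays of both lay above every si-Control array. The T350A difference from EZH2 was -0.68 (SE 0.11, limma adjusted p = 0.0637), and over the 23 other settings, those without 1 array included, its adjusted p ranged from 0.000425 to 0.262. FRMD8, a regulator of iRhom proteins, rose by 0.61 (limma adjusted p = 0.0145), and SH3GL1, an endophilin, by 0.44 (limma adjusted p = 0.0242). PTPRF, a receptor tyrosine phosphatase, rose by 0.51 (limma adjusted p = 0.0215), but its other probe did not move that way, as described with the other probes.

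The remaining raised genes were ADIRF, ADISSP, SPRYD3, SH2D4A, PLAC8, NDRG4 and IFI6, of which SPRYD3 rose with T350A. IFI6, an interferon-induced gene, read 10.47, 11.06 and 10.35 under si-Control, 10.6, 11.08 and 10.42 under si-EZH2, 11.34, 11.31 and 11.17 after EZH2 and 11.08, 11.04 and 11.12 after T350A. Replicate 2 stood high under si-Control and under si-EZH2, and T350A overlapped si-Control. The second IFI6 probe, ILMN_2347798, had means of 10.64 under si-Control and 11.21 under si-EZH2, so it rose with the knockdown (0.57, limma adjusted p = 0.00387), and stood at 10.76 after EZH2 and 10.95 after T350A.

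Other probes of the same genes did not all move with the member probes. Among 25 raised genes with 30 further tested probes, the median difference of EZH2 from si-Control was 0.14, and among 16 lowered genes with 19 further probes it was -0.2. Their medians for T350A from si-Control were 0.1 and -0.12. With T350A 1 of the 30 rose and 0 of the 19 fell (1.75% and 1.81% of all tested probes). The further probes hold no probe that met the rule, so smaller differences than those of the members are favoured by the choice. Nothing is read from the gap to the member probes. With EZH2, 23 of the 30 and 14 of the 19 lay on the member probe's side of si-Control. Of the 30, 20 were detected on all 12 arrays, and of the 19, 14 were. HCFC1R1 had a brighter probe, ILMN_1757877, with a mean of 12.52 under si-Control and 12.01 after EZH2, opposite to its member probe. PTPRF probe ILMN_1798081 went from 9.51 to 9.05, again opposite. For these genes the direction holds for 1 probe and not for the gene. DKK1, a Wnt inhibitor, had a much brighter probe at 13.55 under si-Control and 13.48 after EZH2. Among lowered genes, SAP30L probe ILMN_1757781 went from 9.76 under si-Control to 9.89 after EZH2. TOR1AIP1 probe ILMN_1729318 went from 10.87 to 10.96, so both lay opposite to their member probes. CTSC probe ILMN_1792885 went from 10.43 to 10.54, also opposite. Further CTSC probes ILMN_1689086 and ILMN_1696347 went from 7.44 to 7.08 and from 11.42 to 11.22, on the member probe's side. With T350A the brighter of these, ILMN_1696347, stood at -0.01 from si-Control. In the same direction as the member probe lay FAT1 probe ILMN_3247578, at 11.36 against 10.67, and ID1 probe ILMN_1665832, at 5.69 against 6.35. The FAT1 probe also stood at 11.02 under si-EZH2, -0.34 from si-Control, and the ID1 probe at 5.92.

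**Figure D5:**
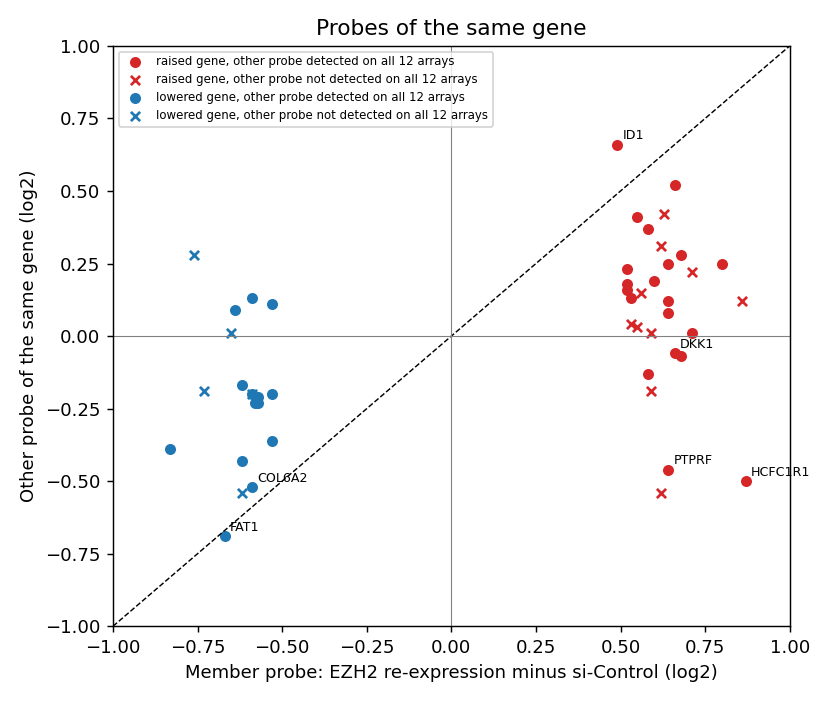
Each point is a further probe of a gene in the set, with the member probe's log2 difference of EZH2 re-expression from si-Control on the horizontal axis and the further probe's own difference on the vertical axis. Many further probes lie near 0, FAT1, COL6A2 and ID1 near the dashed line of equal differences, and HCFC1R1 and PTPRF on the opposite side of 0.

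Some members belonged to wider pathway lists, and whether they did so more or less often than other genes was not tested. Of 47 tested genes of the fibroblast matrix, 2 rose and 7 fell with EZH2 relative to si-Control (median -0.061), and 4 rose and 1 fell with T350A (median 0.054), where the medians of all tested probes were 0.002 and 0. Over all 12640 genes 4.32% rose and 4.48% fell with EZH2, and 2.11% rose and 2.1% fell with T350A. Chip section as a linear covariate changed the calls of EZH2 against si-Control over all tested probes. They went from 839 higher and 849 lower to 152 and 130. The list counts here and below come from the fit without that covariate. COL6A1, the third collagen VI chain tested, was no member, with means of 12.75 under si-Control, 13.13 under si-EZH2, 12.31 after EZH2 and 12.68 after T350A. Its si-EZH2 mean stood above si-Control and its EZH2 mean below.

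Of 33 tested G2/M genes, 5 rose and 2 fell with EZH2 (median 0.141) and 0 rose and 2 fell with T350A (median -0.161). Set directly against EZH2, 0 of the 33 were called with T350A, and their median was -0.316 against -0.001 over all tested probes. In the knockdown 7 of the 33 fell (1.5% of all genes fell and 1.95% rose), and the median of the list was -0.217. Of 30 tested DNA replication genes 1 rose with EZH2, which was TK1, and 0 were called with T350A. Of 46 interferon-stimulated genes 14 rose with EZH2, 12 with T350A and 14 with si-EZH2. Of 40 genes of the unfolded protein and amino acid response, which holds PSPH, 2 rose with each re-expressed protein. Apart from EZH2 itself, 0 of the other 10 PRC2 genes were called with either protein.

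Features of the members that the rule did not use are given here as descriptions. The median gene length was 16.8 kb for raised genes (quartiles 6.89 and 40.4), 37.8 kb for lowered genes (15.2 and 90.3) and 29.3 kb (11.7 and 69.6) for 8086 genes past every other criterion. RefSeq promoters were found for 46 of 57 raised genes. Of these 50% held a CCAAT box on either strand, against 37.5% of 6718 promoters past every other criterion and 35.7% of all 27305 promoters of that length. A TATAAA sequence on either strand was in 15.2%, 4.88% and 12% respectively, and a GC box in 78.3%, 71.2% and 44.6%. Promoters were found for 32 of 41 lowered genes, 78%, which is under the 80% set for such a check, so it is void for them. The other motifs searched on either strand were TTTGAA (10.9% of raised against 9.48% of the 6718), TGANTCA (2.17% against 4.14%), ACGTG (37% against 28.3%) and TTNGCGC (6.52% against 13.6%). These shares carry no test, and the raised genes are few.

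The limit of 0.5 cut through a continuous range. On the authors' scale the values just inside it were 0.5013 for MAP6, 0.5016 for MED20 and 0.5026 for VCP, and -0.501 for UNC5B, -0.5012 for CTSC and -0.5023 for RAB11FIP2. Just outside lay RXRB at 0.4968, TGS1 at 0.4938 and CCDC24 at 0.4868, and CRNDE at -0.4996, PCDHGB6 at -0.4977 and APOLD1 at -0.497.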

How the data were processed

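RNA of 12 BJ samples was measured on 1 Illumina BeadChip. The deposited non-normalized table gives, per the file headers, 1 linear intensity and 1 detection p-value per probe and array. The authors' normalized table gives intensity values for 47229 probes, by a method not given in the sources used here. Log2 of the latter chose the members. The members and gene lists were chosen with earlier results of these data known.

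For the tests, deposited intensities were background-corrected by normexp with an offset of 16, quantile-normalized and put on a log2 scale (neqc, limma 3.58.1, R 4.3.3). Probes with a detection p-value under 0.05 on at least 3 arrays were kept, 23313 in all. Limma was fitted over all 12 arrays in 4 groups (8 residual and 7.29 prior degrees of freedom), 2-sided, with Benjamini-Hochberg adjustment over all tested probes at 0.05. The fit was tested on simulated data. The number of arrays limits the precision, and the median replicate SD was 0.153 on the log2 scale. Replicate numbers did not pair the samples, as deviations of same-numbered arrays correlated between -0.0363 and 0.0709.

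Symbols came from GEO's platform annotation, and positions and promoters from RefSeq GRCh38.p14. Among 47231 probes, 30113 had 1 symbol, 8 several and 17110 none. Genes to be given values were drawn from the 12 genes of each direction with the largest EZH2 difference. They were also drawn from up to 8 with the smallest adjusted p in each T350A comparison and up to 6 with the largest T350A minus EZH2 difference. List members, genes with several member probes, and probes at the limit were added. Not all of these have their array values printed, and GLRB, TAOK1 and TTYH3, for example, are named only. Every other member is named, and those given further values were chosen after these were seen. Alternatives changed background, scaling, filter, model, rule limits and single arrays.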

Additional observations from a re-analysis of the deposited data

How the results depend on the processing

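Over 63 named member values and 23 alternative settings, 1154 kept their direction and side of the threshold, 237 were no longer called, 58 became called and 0 reversed. The settings below are given in the order no background correction, offset of 50, the authors' values, detection p under 0.01 on all 12 arrays, and limma-trend with robust moderation. With T350A against si-Control the 16 raised calls became 31, 29, 32, 28 and 29, and 5 with only the groups compared. The 24 lowered calls became 36, 35, 31, 33 and 36 in the same order. They became 9 with only the groups compared and 15 with chip section as a covariate. Leaving out 1 array gave 5 to 20 raised calls (8 without si-Control replicate 1, 6 without replicate 3, and 8 and 5 without T350A replicates 1 and 2) and 7 to 21 lowered calls (8, 15 and 7 when replicate 1, 2 or 3 of si-Control was left out, and 8, 14 and 9 when that of T350A was). The calls of 2 raised probes (PSPH, SPOCD1) and 6 lowered probes (AGRN, DLGAP4, FAM210B, RAB38, SOD3, TTYH3) held in all of these settings.

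Against EZH2 the 0 raised calls became 6, 6, 5, 2 and 6, and the 0 lowered calls became 3, 1 and 1 under the first 3 settings and 2 with limma-trend. They were 0 to 0 without any 1 array. Against si-EZH2 the 1 raised call became 14, 11, 13, 10 and 13, and 0 with array weights, median scaling, the replicate block, chip section or only the groups compared. The 1 lowered call became 15, 14, 14, 12 and 13, then 3 with no filter and 0 with only the groups compared, the replicate block or chip section. Leaving out 1 array gave 0 to 2 raised and 0 to 1 lowered calls. Same-numbered arrays did not deviate together, so the block result describes a shared number only.

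The median against si-Control, 0.364 for raised probes, was 0.295 without background correction and 0.291 with median scaling, and 0.35 to 0.401 without 1 array. For lowered probes, -0.434 became -0.393, -0.501 and, on the authors' values, -0.391, and -0.468 to -0.43 without 1 array. Against EZH2 the raised median -0.249 became -0.21 without background correction, and -0.27 to -0.219 without 1 array. The lowered median 0.233 became 0.207 without background correction, 0.259 with median scaling, 0.211 with an offset of 50 and 0.214 on the authors' values, and 0.226 to 0.246 without 1 array. Against si-EZH2 the raised median 0.3 became 0.244 without background correction, and 0.254 to 0.354 without 1 array. The lowered median -0.342 became -0.294, -0.375, -0.31 and -0.304 in the order just given, and -0.369 to -0.29 without 1 array.

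Median scaling split the calls over all tested probes differently, with 272 higher and 728 lower for T350A against si-Control (407 and 423 otherwise) and 499 higher and 1615 lower for EZH2 against si-Control (839 and 849 otherwise). The rule itself gave 86 raised and 93 lowered probes on neqc values. At a knockdown limit of 0.1 it gave 27 raised and 20 lowered, and at 0.3 it gave 90 and 80. At an EZH2 limit of 0.4 it gave 158 and 140, and at 0.6 it gave 16 and 16. Without 1 array it gave 46 to 71 raised and 39 to 58 lowered. The causes were not tested.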
